A study of Mus musculus with 6 samples.

Results

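The genes of cholesterol and fatty acid synthesis were examined in regulatory T cells (Tregs) from the BM of mice with chronic myeloid leukemia (CML) and of naive mice. The set holds 32 genes of the 36930 features in the tables, found by their gene names: 7 enzymes of the mevalonate pathway, 11 enzymes of sterol synthesis, 5 genes of SREBP control, 4 genes of liver X receptor (LXR) control and sterol transport, and 5 genes of fatty acid synthesis. All 32 were found. RNA-Seq was performed on FACS-purified BM Tregs from 3 CML and 3 naive mice, with 1 library for each mouse. All mice were of the Foxp3-DTR-GFP strain, in which the Foxp3 gene drives a diphtheria toxin receptor and GFP, and were 8 weeks old. CML mice had received LSKs, a fraction of hematopoietic stem and progenitor cells, that carried BCR-ABL1-GFP. These recipients were syngeneic and had not been irradiated, so their own blood formation was left in place, and both the Tregs and the leukemic cells of CML mice carried GFP. The labels do not give the time between injection and harvest. Naive mice carried no leukemia.

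Cholesterol is built from acetyl-CoA by way of mevalonate, farnesyl diphosphate, squalene and lanosterol. When membrane cholesterol is low, Scap escorts the SREBP transcription factors, encoded by Srebf1 and Srebf2, from the endoplasmic reticulum to the Golgi, where they are cleaved and released to switch on these enzymes. When sterols are plentiful, the Insig proteins hold Scap back, and LXRs, for which Nr1h2 encodes one form, switch on the efflux pumps Abca1 and Abcg1. Dividing T cells need new membrane, and the mevalonate pathway is known to contribute to the function of Tregs.

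The main observation was that no gene of the set differed between CML and naive Tregs by the threshold for all genes. In limma fits of log2(RPKM + 1), 0 of 31 genes tested passed the limits of 0.05 for the adjusted p and 1.5 for the fold, beside 0.172% of the 13923 genes tested. With so small a share of all genes, 0 of 31 does not set these genes apart. The paper used DESeq2 and reports far more genes at the same limits than this fit called. RPKM are reads per kilobase of gene, scaled to the reads of the library, and Scd1, with a mean under 1 RPKM, was left out of the fit. A p that misses the threshold does not show equal levels: the 95% intervals of the log2 differences ran from -0.19 to 0.60 for Acly, the narrowest, and from -3.60 to 1.33 for Msmo1, the widest. At an unadjusted p under 0.05, 2 genes were lower in CML Tregs, Mvk and Srebf2, beside 6.77% of all genes, and 0 were higher, beside 2.92%. In 4 of 31 genes (Mvk, Mvd, Tm7sf2 and Srebf2) all CML libraries lay below all naive libraries, beside 12.2% of all genes. In 1, Nsdhl, all lay above, beside 4.84%. These shares were near those of all genes or below them. The difference was below 0 in 25 of 31 genes, or 80.6%, beside 64.3% of all genes. Without CML replicate 2, the library with the fewest reads, it was below 0 in 15 of 31, or 48.4%, beside 52.9%. With quantile normalization it was below 0 in 20 of 31 genes, beside 50.7% of all genes. No gene of the set passed an unadjusted p of 0.05 when CML replicate 2, CML replicate 3 or any 1 naive library was left out, and 3 passed when CML replicate 1 was left out.

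The depth of the libraries therefore has to be read beside each value. The steps between low values of short RNA genes gave about 7613827, 829181 and 2286190 reads for CML replicates 1, 2 and 3 and 5187987 to 9751911 reads for the naive libraries. With the coding length of each gene, these totals turn a value into estimated reads. A median gene of the set had 138, 8.00 and 38.5 reads in the CML libraries in that order and 94.0 to 175 reads in the naive libraries. Reads were found for all 32 genes in each naive library, and for 31, 25 and 29 genes in CML replicates 1, 2 and 3. In CML replicate 2, 19 genes had at most 10 reads, and 3 reads of a median gene made 2.92 RPKM. This library also differed in composition. Its 10 highest features held 50.7% of the summed RPKM, beside 28.5% to 31.3% in the other libraries. The part of depth and of composition in its low values was not tested. Intervals given below for single libraries are exact 95% Poisson intervals of these reads. They cover counting error only, since the kit amplifies the RNA and adds no molecular identifiers. Below, values of the 3 libraries of a group stand in the order of replicates 1, 2 and 3.

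The Treg label held in all libraries. Foxp3, the transcription factor that defines Tregs, had 299 to 468 RPKM in CML and 297 to 367 RPKM in naive libraries, and all 6 Treg markers had reads in every library. Markers of other cells differed among the CML libraries. The summed level of the 9 neutrophil and myeloid progenitor markers was 12.0, 213 and 232 RPKM in the CML libraries and 32.6 to 54.3 RPKM in naive libraries. That of the 7 erythroid markers in the tables was 79.3, 8.43 and 100.4 RPKM and 2.70 to 18.2 RPKM. The 8 markers of cycling cells summed to 161 to 341 RPKM in CML and 146 to 153 RPKM in naive libraries. The monocyte and macrophage markers summed to 25.8 to 53.8 RPKM and 34.2 to 53.7 RPKM, and the CD8 T cell markers to 51.1 to 74.2 RPKM and 26.2 to 58.7 RPKM. The part of these cells in the differences below was not tested, and in sorted bulk samples fewer cells of a type and less RNA per cell cannot be told apart.

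**Figure D1:**
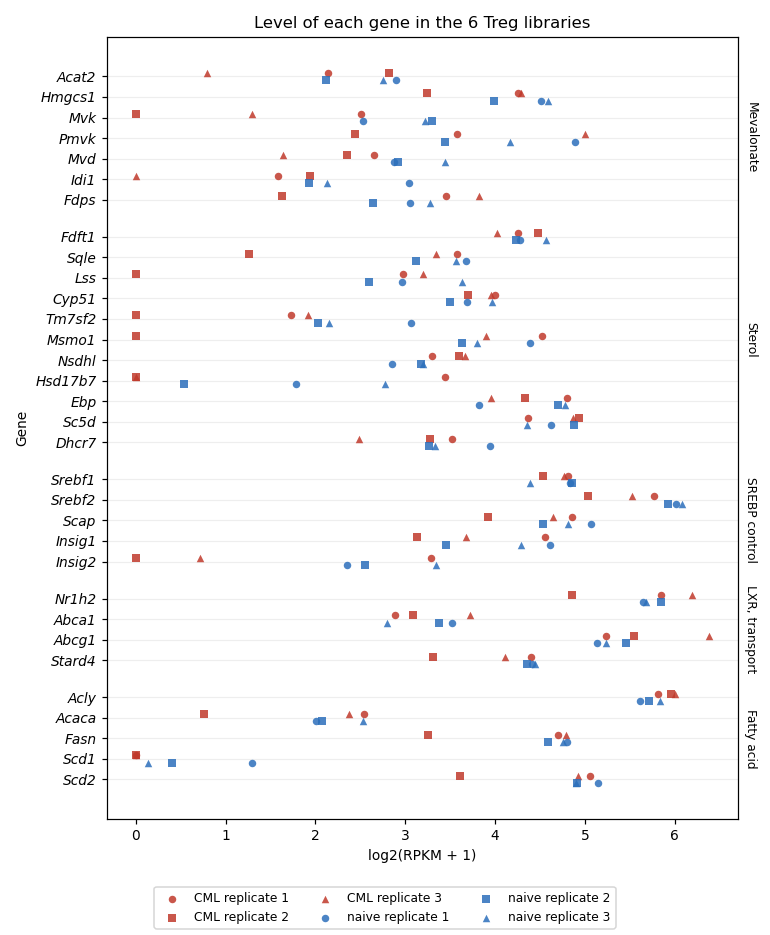
Level of each of the 32 genes as log2(RPKM + 1) in every library, with CML libraries in red, naive libraries in blue and a marker shape for each replicate number; replicate numbers belong to different mice. CML replicate 2 holds the lowest point of many rows, and Acly, Nr1h2 and Srebf2 have the highest mean levels.

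The 7 mevalonate enzymes take acetyl-CoA to farnesyl diphosphate. All 7 had a lower mean log2 level in CML than in naive Tregs, beside 64.3% of all genes. Their median log2 difference was -0.67, beside -0.18 for all genes tested. Fdps was at only -0.02, and its mean RPKM was higher in CML Tregs (8.41 beside 7.08). Without CML replicate 2 the median was -0.93, beside -0.03 for all genes tested, but only 5 of 7 were lower. Mvk (chr5:114444269-114460591) encodes mevalonate kinase, which adds the first phosphate to mevalonate. Its level was 4.68, 0 and 1.45 RPKM in CML Tregs and 4.77, 8.85 and 8.31 RPKM in naive Tregs. CML replicate 1 lay just under naive replicate 1, and the other CML libraries lay well under every naive library. In limma, Mvk differed by -1.75 ± 0.68 (SE) on the log2 scale, with a 95% interval from -3.32 to -0.17, an unadjusted p of 0.0337 and an adjusted p of 0.476.

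The reads behind Mvk were few in the libraries that were lowest. The naive mean corresponded to 7.42 reads at the depth of CML replicate 2, where 0 were found, and to 20.4 reads at that of CML replicate 3, where 4 were found. The interval of CML replicate 3 reached 3.66 RPKM and that of CML replicate 2 reached 3.63 RPKM, both below the lowest naive value. The interval of that value, in naive replicate 1, ran from 3.19 to 6.74 RPKM and overlapped both. The interval of CML replicate 1, from 3.43 to 6.34 RPKM with 44 reads, held the value of naive replicate 1. Without CML replicate 2 the log2 difference was -1.12.

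Mvd (chr8:122433601-122443422), the decarboxylase that forms isopentenyl diphosphate, had 5.29, 4.12 and 2.11 RPKM in CML Tregs and 6.31, 6.54 and 9.90 RPKM in naive Tregs. All CML libraries lay below all naive ones. This gave a log2 difference of -0.86 ± 0.45 (SE; adjusted p = 0.579 in limma), of -0.93 without CML replicate 2 and of -0.57 without CML replicate 3. Only 4 and 6 reads stood behind the values of CML replicates 2 and 3, and the interval of the former reached 10.2 RPKM, above every naive library.

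The other 5 mevalonate enzymes overlapped between the groups. Idi1, which converts isopentenyl diphosphate to its isomer, had a log2 difference of -1.19 and Acat2, the cytosolic thiolase at the entry of the pathway, one of -0.67. Both were lowest in CML replicate 3, with 0 and 2 reads, and without that library the differences were -0.60 and -0.11. They were -1.57 and -1.12 without CML replicate 2. Hmgcs1, the cytosolic HMG-CoA synthase, was at 18.1, 8.49 and 18.5 RPKM in CML Tregs and at 14.9 to 23.0 RPKM in naive Tregs, so that CML replicate 2 alone lay outside the naive range. Its log2 difference was -0.44, and -0.09 without that library. Pmvk, the second kinase of the pathway, spread from 4.42 to 31.0 RPKM in CML Tregs and went from -0.50 to 0.12 when CML replicate 2 was left out. Fdps, the synthase of farnesyl diphosphate, went from -0.02 to 0.65. An annotated gene on the other strand overlaps Hmgcs1, and another on the same strand overlaps Fdps. Their reads could not be separated, for Hmgcs1 because the kit does not mark strand.

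The promoters of 4 genes are shown to set the sequence features of SREBP targets beside these values: Mvk, Mvd and Srebf2, whose libraries did not overlap, and Hmgcs1, a well-known SREBP target whose libraries did. They were chosen after the values were seen, and the shorter search below was added after these windows were seen. SREBPs bind sterol response elements, searched here as TCACNCCAC and, in a shorter form that also takes every match of the longer one, as TCACNCCA, and they act together with NF-Y at CCAAT boxes and Sp1 at GC boxes, searched as GGGCGG. Each window runs from 250 bases before to 50 bases after a transcription start of RefSeq on GRCm38.p6 and is written 5′ to 3′ on the strand of the gene. Capitals mark CCAAT or its reverse complement and the sterol response element letters.

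The Mvk window at chr5:114444019-114444318, on the plus strand, is shown because Mvk had the lowest unadjusted p of the set and holds 5 CCAAT boxes.
Mvk: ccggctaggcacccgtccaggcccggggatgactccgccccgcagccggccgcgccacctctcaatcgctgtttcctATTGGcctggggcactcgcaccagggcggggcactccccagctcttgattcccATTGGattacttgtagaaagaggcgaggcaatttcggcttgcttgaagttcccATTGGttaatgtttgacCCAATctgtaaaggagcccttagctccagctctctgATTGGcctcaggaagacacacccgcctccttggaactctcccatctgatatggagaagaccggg
The Mvd window at chr8:122443373-122443672, on the minus strand, holds 2.
Mvd: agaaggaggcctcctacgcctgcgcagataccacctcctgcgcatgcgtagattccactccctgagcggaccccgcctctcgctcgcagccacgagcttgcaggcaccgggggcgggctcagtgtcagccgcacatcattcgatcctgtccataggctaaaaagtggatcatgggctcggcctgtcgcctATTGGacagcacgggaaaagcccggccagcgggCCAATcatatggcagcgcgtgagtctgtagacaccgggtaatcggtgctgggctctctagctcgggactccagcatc
The Hmgcs1 window at chr13:119690101-119690400, on the plus strand, holds the only match of the set to the longer element, and 4 CCAAT boxes.
Hmgcs1: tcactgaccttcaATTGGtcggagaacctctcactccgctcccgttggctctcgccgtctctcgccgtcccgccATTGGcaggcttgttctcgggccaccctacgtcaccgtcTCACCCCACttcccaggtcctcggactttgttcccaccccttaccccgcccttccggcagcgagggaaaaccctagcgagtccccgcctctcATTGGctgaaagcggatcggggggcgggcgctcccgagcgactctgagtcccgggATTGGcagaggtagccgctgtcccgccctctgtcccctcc
The Srebf2 window at chr15:82147019-82147318, on the plus strand, holds a match to the shorter element, 1 CCAAT box and 5 GC boxes.
Srebf2: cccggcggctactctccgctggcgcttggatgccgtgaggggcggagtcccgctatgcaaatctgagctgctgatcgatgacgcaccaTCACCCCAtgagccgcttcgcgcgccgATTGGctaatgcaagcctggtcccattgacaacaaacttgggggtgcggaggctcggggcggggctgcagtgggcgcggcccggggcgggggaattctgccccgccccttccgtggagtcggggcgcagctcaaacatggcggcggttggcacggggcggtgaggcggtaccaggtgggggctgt

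RefSeq promoters could be matched to 25 of the 32 genes, with 33 windows in all. On both strands, the longer element was found in 1 of 33 windows and in 1.24% of the 32851 windows of all genes, and the shorter one in 3 of 33 windows (Hmgcs1, Msmo1 and Srebf2) and in 4.36%. A CCAAT box was found in 21 of 33 windows, or 63.6%, beside 37.4% of all windows, and a GC box in 25 of 33, or 75.8%, beside 35.7%. Both boxes stood in the same window in 17 of 33 windows, or 51.5%, beside 12.8% of all windows. By gene, this held for 5 of 5 genes whose groups did not overlap and for 12 of 20 whose groups overlapped. The former are Mvk, Mvd, Tm7sf2 and Srebf2, lower in CML Tregs, and Nsdhl, higher in them. With so few genes, split by the values of these data, the counts cannot show a link between the boxes and the differences. A match is a run of letters in these windows and not a measured binding site.

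The 11 sterol enzymes turn farnesyl diphosphate into squalene, lanosterol and cholesterol. Of these, 8 had a log2 difference below 0, with a median of -0.42, and 5 without CML replicate 2, with a median of 0.01. Of all genes, 64.3% were below 0, and 52.9% without that library. Tm7sf2 (chr19:6062821-6068373) is a sterol reductase that acts after Cyp51. It had 2.30, 0 and 2.78 RPKM in CML Tregs and 7.36, 3.08 and 3.43 RPKM in naive Tregs. Naive replicate 1 was far above the other naive libraries, which lay close above CML replicates 1 and 3. Its log2 difference was -1.20 ± 0.65 (SE; adjusted p = 0.592 in limma), and -0.59 without CML replicate 2. That library had 0 reads where the naive mean corresponded to 4.82 reads, and CML replicate 3 had 8.

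Nsdhl (chrX:72918557-72958514), a dehydrogenase that takes part in removing methyl groups from lanosterol, was the only gene of the 31 tested whose CML libraries all lay above the naive ones. It had 8.81, 11.1 and 11.6 RPKM in CML Tregs and 6.20, 8.06 and 8.19 RPKM in naive Tregs. CML replicate 1 came nearest to the naive libraries. On the log2 scale Nsdhl differed by 0.44 ± 0.33 (SE; 95% interval from -0.32 to 1.20, adjusted p = 0.689 in limma) and 0.40 without CML replicate 2. The enzymes that work with it on the same methyl groups did not show this order. Msmo1 had 21.9, 0 and 13.9 RPKM in CML Tregs and 11.4 to 19.9 RPKM in naive Tregs, and Hsd17b7 had reads in only 1 CML library, with 9.88 RPKM, beside 0.446 to 5.81 RPKM in naive Tregs.

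In 5 of the 18 mevalonate and sterol enzymes (Mvk, Lss, Tm7sf2, Msmo1 and Hsd17b7) no read was found in CML replicate 2. At its depth, the naive means of these genes corresponded to between 2.62 reads (Hsd17b7) and 14.1 reads (Lss). Lss, which closes the ring to form lanosterol, had 6.84 and 8.18 RPKM in the other CML libraries and 5.05 to 11.4 RPKM in naive ones. Its log2 difference of -1.01 went to 0.02 without CML replicate 2, as that of Msmo1 went from -1.13 to 0.27. Sqle, the squalene epoxidase, showed the same pattern with 2 reads in CML replicate 2, where the naive mean corresponded to 14.4, and went from -0.72 to 0.01. An antisense gene overlaps Lss.

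The remaining 5 sterol enzymes overlapped between the groups, with intervals of the difference on both sides of 0. Fdft1, the squalene synthase, had 15.2 to 21.3 RPKM in CML and 17.8 to 22.6 RPKM in naive Tregs (log2 difference -0.10). Cyp51, which removes the first methyl group of lanosterol, had 12.0 to 14.9 RPKM and 10.3 to 14.7 RPKM (0.17). Ebp and Sc5d, an isomerase and a desaturase of the late pathway, differed by -0.07 and 0.10. Dhcr7, a reductase of the last steps, had 4.60 to 10.4 RPKM and 8.63 to 14.3 RPKM (-0.42), and its difference was -0.12 without CML replicate 3 and -0.21 without naive replicate 1.

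Over the 18 mevalonate and sterol enzymes together, 15 had a log2 difference below 0, beside 64.3% of all genes, with a median of -0.52. The mean log2(RPKM + 1) was 2.83 ± 0.58 in CML and 3.38 ± 0.23 in naive Tregs (SD, n = 3 each). By library it was 3.37, 2.22 and 2.90 in CML Tregs and 3.49, 3.11 and 3.54 in naive Tregs, so that CML replicate 1 lay within the naive range and the libraries with fewer reads below it. Without CML replicate 2 the median was -0.03 and 10 of 18 were below 0. The summed RPKM of the 18 were 205, 131 and 190 in CML Tregs and 218, 177 and 221 in naive Tregs. On this scale, in which genes without reads weigh less, CML replicate 3 also lay within the naive range. As a comparison, 14 enzymes of fatty acid oxidation, which all had reads in every library, had means of 4.48, 4.35 and 4.39 in CML and 4.12, 4.49 and 4.20 in naive Tregs. These enzymes had a higher mean level, 4.27 beside 3.38 in naive Tregs, so the comparison is not matched for level. The part of depth in the lower means of the 18 was not tested.

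**Figure D2:**
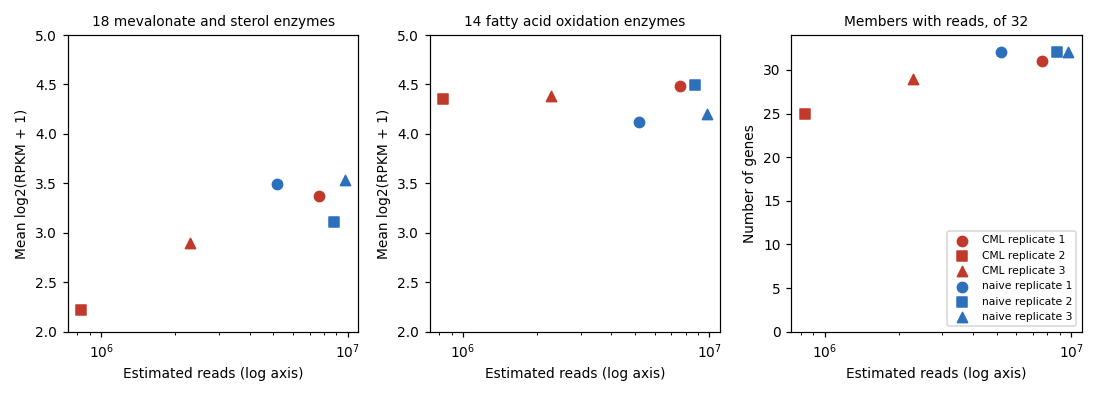
Libraries by estimated reads (log axis) against the mean log2(RPKM + 1) of the 18 mevalonate and sterol enzymes, the same mean for 14 fatty acid oxidation enzymes, and the number of the 32 genes with reads, with CML libraries in red and naive libraries in blue. The mean of the 18 enzymes is 2.22 in the library with 829181 reads and 2.90 in that with 2286190, against 3.11 to 3.54 in the 4 libraries with more reads. The fatty acid oxidation mean lies between 4.12 and 4.49, but these enzymes have a higher level and reads in every library, so the panels are not matched.

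Srebf2 (chr15:82147181-82205379) encodes the SREBP that acts mainly on cholesterol genes. Its level was 53.6, 31.6 and 45.1 RPKM in CML Tregs and 63.7, 59.8 and 66.7 RPKM in naive Tregs. All CML libraries were below all naive libraries, which lay close together (43.4 ± 11.1 and 63.4 ± 3.48 RPKM, SD, n = 3 each). In limma, Srebf2 differed by -0.57 ± 0.23 (SE) on the log2 scale, with a 95% interval from -1.09 to -0.04, an unadjusted p of 0.0377 and an adjusted p of 0.489. It thus missed the threshold set over all genes.

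Srebf2 was covered by many reads, unlike Mvk. The 3 CML values rested on 1384, 89 and 350 reads, with intervals from 50.8 to 56.5, from 25.4 to 38.9 and from 40.5 to 50.1 RPKM. The interval of the lowest naive library ran from 57.0 to 62.6 RPKM, so that no CML interval reached it. Without CML replicate 2 the log2 difference was -0.36.

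Srebf1, which encodes the SREBP that acts mainly on fatty acid genes, showed no such order. It had 22.2 to 27.1 RPKM in CML and 19.9 to 27.9 RPKM in naive Tregs, and its log2 difference was 0.01 with an interval from -0.54 to 0.57. Scap, which an antisense gene overlaps, had 14.2 to 28.0 RPKM and 22.2 to 32.4 RPKM (-0.33, and -0.05 without CML replicate 2). Insig1, itself a target of SREBPs, had 7.73 to 22.6 RPKM and 9.94 to 23.5 RPKM (-0.33, and -0.00059 without CML replicate 2). Insig2 had 8.72, 0 and 0.645 RPKM in CML Tregs and 4.11 to 9.12 RPKM in naive Tregs (-1.41), with a log2 difference of -0.75 without CML replicate 2 and of -2.39 without CML replicate 1. Its low CML values came from 0 reads and 1 read, at depths where the naive mean corresponded to 3.39 and 9.34. Over the 5 genes the median log2 difference was -0.33, and -0.05 without CML replicate 2.

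The 4 LXR and sterol transport genes had a median log2 difference of -0.05, and 0.18 without CML replicate 2, and 3 of 4 were below 0. Nr1h2 (chr7:44549616-44553951), one of the genes with the highest level of the set, had 56.5, 28.0 and 72.3 RPKM in CML Tregs and 49.1, 56.3 and 50.3 RPKM in naive Tregs. The CML libraries lay on both sides of the naive ones. The log2 difference was -0.09, with an interval from -0.86 to 0.68 and an adjusted p of 0.942 in limma, and turned to 0.30 without CML replicate 2. Abcg1, which exports cholesterol, had 36.7, 45.8 and 82.6 RPKM in CML Tregs and 34.2, 42.8 and 36.7 RPKM in naive Tregs. CML replicate 3 alone stood far above the rest. The log2 difference of 0.45 was 0.12 without that library. Abca1, the other efflux pump, had 6.40 to 12.1 RPKM and 5.97 to 10.5 RPKM. Stard4, a carrier of sterols inside the cell, had 20.1, 8.93 and 16.2 RPKM in CML Tregs and 19.5 to 20.7 RPKM in naive Tregs, and the highest CML library lay inside the narrow naive range (-0.46, and -0.15 without CML replicate 2).

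Fatty acid synthesis starts from citrate, which Acly splits to acetyl-CoA. Acly (chr11:100476353-100528000) had the highest mean level of the set, with 55.0, 61.3 and 63.0 RPKM in CML Tregs and 48.0, 51.5 and 56.2 RPKM in naive Tregs. Of the CML libraries only replicate 1 lay below the highest naive library. The log2 difference was 0.20, with an interval from -0.19 to 0.60 and an adjusted p of 0.708 in limma. The level in CML replicate 2, with 168 reads, was as high as in the other CML libraries, whereas Srebf2, Nr1h2 and Fasn were lowest there. Fasn, the fatty acid synthase, had 25.0, 8.51 and 26.7 RPKM in CML Tregs and 23.0 to 26.9 RPKM in naive Tregs. Its value in CML replicate 2 rested on 53 reads, with an interval from 6.37 to 11.1 RPKM, where the naive mean corresponded to 158 reads. The log2 difference was -0.47, and 0.03 without that library. Acaca, the acetyl-CoA carboxylase, had 3.23 ± 2.23 RPKM in CML and 3.66 ± 0.97 RPKM in naive Tregs (SD, n = 3 each), with a log2 difference of -0.31, and 0.26 without CML replicate 2.

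Scd2 and Scd1 encode desaturases that place a double bond in fatty acids, and they are close copies, so reads in shared stretches could have been assigned to either. Scd2 carried nearly all of the signal, with 32.2, 11.2 and 29.2 RPKM in CML Tregs and 34.4, 29.0 and 28.9 RPKM in naive Tregs. CML replicate 2 alone lay outside the naive range, and the log2 difference of -0.46 was 0.0021 without it. An annotated gene on the same strand, Mir5114, overlaps Scd2. Scd1 had no reads in the 3 CML libraries and 8, 3 and 1 reads in naive replicates 1, 2 and 3 (1.44, 0.320 and 0.096 RPKM). The naive mean of 0.620 RPKM corresponded to 5.04, 0.549 and 1.51 reads in CML replicates 1, 2 and 3, so a difference was not detectable at the depth of the latter pair. Over the 4 fatty acid genes tested the median log2 difference was -0.38. Without CML replicate 2 it was 0.11, and 0 of 4 were below 0.

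**Figure D3:**
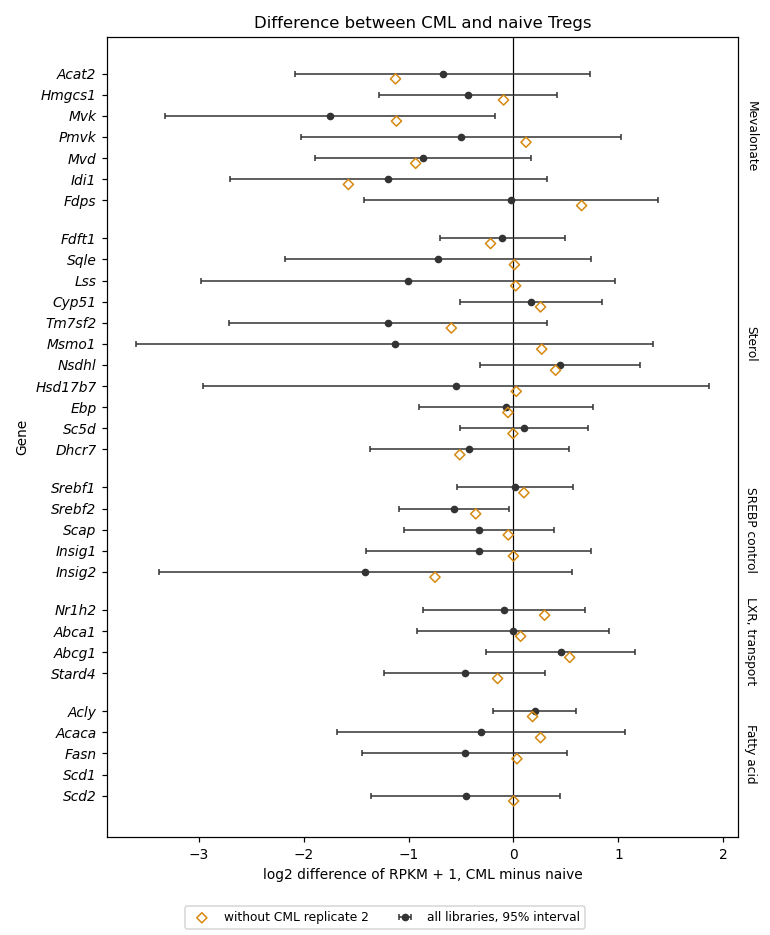
Log2 difference of RPKM + 1, CML minus naive, for the 31 genes tested, with 95% limma intervals over all libraries (black) and the difference without CML replicate 2 (open diamonds); Scd1 was not tested. Only the intervals of Mvk and Srebf2 stay below 0, and many diamonds lie nearer 0 than the black points, though those of Acat2, Idi1 and Mvd lie farther below it.

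Each CML library was also placed against the naive range of each gene. In CML replicate 1, 5 of 31 genes lay below all naive libraries and 8 above, beside 31.5% and 27.1% of all genes. In CML replicate 2, 19 lay below and 4 above, beside 55.5% and 18.6%. In CML replicate 3, 11 lay below and 7 above, beside 33.8% and 33.6%. The share below in CML replicate 1, 16.1%, was thus lower than that of all genes. In CML replicates 2 and 3, at 61.3% and 35.5%, it was near that of all genes.

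**Figure D4:**
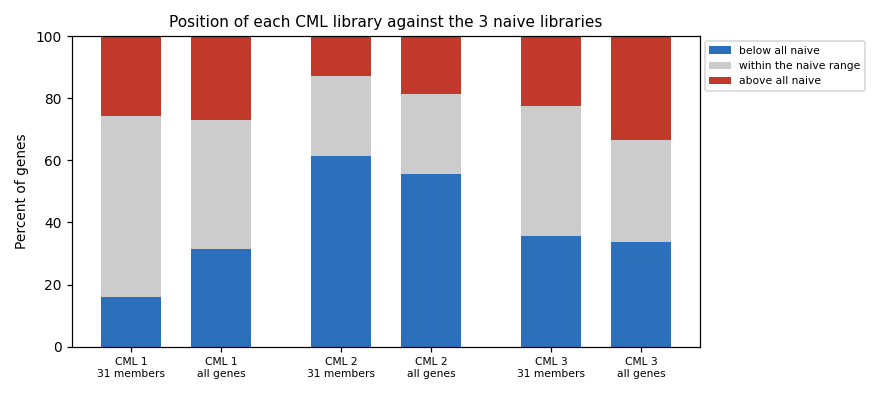
Percent of the 31 genes tested and of all 13923 genes tested that lay below, within or above the range of the 3 naive libraries, for each CML library. The share below is 16.1%, 61.3% and 35.5% for the set and 31.5%, 55.5% and 33.8% for all genes in CML replicates 1, 2 and 3.

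Other genes of the pathway were listed beside the set. Of 9 sterol branch and isoprenoid genes tested, 6 had a log2 difference below 0 and 1 passed an unadjusted p of 0.05, with a median of -0.19. This gene was Lbr, which encodes the lamin B receptor and catalyses the same step as Tm7sf2. It had 107, 99.4 and 107 RPKM in CML Tregs and 158, 139 and 130 RPKM in naive Tregs. The groups did not overlap, and the CML libraries lay close together, CML replicate 2 included. Among the other sterol branch and isoprenoid genes tested, Dhdds was also lower in CML Tregs without overlap (log2 difference -1.09). Por went the other way and was higher in CML Tregs without overlap (log2 difference 0.33). Lbr differed by -0.44 ± 0.15 (log2, SE; unadjusted p = 0.0200, adjusted p = 0.414 in limma), and -0.40 without CML replicate 2.

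Of 11 genes of SREBP processing and sterol handling tested, 9 were below 0 and 0 passed an unadjusted p of 0.05 in limma, with a median of -0.26, and 0.06 without CML replicate 2. Among those tested, Npc1 and Rxrb were lower in CML Tregs without overlap. Of 14 genes of fatty acid supply, elongation, desaturation and activation tested, 10 were below 0 and 1 passed, with a median of -0.26. This gene was Acss1, which makes acetyl-CoA from acetate in mitochondria. It had 7.24, 8.83 and 12.0 RPKM in CML Tregs and 17.5, 16.7 and 13.8 RPKM in naive Tregs, again without overlap. Acss1 differed by -0.74 ± 0.31 (log2, SE; unadjusted p = 0.0463, adjusted p = 0.507 in limma), and -0.71 without CML replicate 2. Elovl1 was lower without overlap as well. For these lists and the sterol branch genes, the shares of all genes are to be read beside the counts. Of all genes, 64.3% were below 0 and 6.77% were lower at an unadjusted p under 0.05 in limma. Without overlap, 12.2% of all genes were lower and 4.84% higher.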

How the data were processed

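The deposited tables hold 1 value for each of 36930 features in each library. The authors made libraries with the SMART-Seq v4 kit, aligned reads with SeqMan NGen 15 (GRCm38 or mm10 per the labels) and quantified them in ArrayStar 15. Their unit is not given in the sources used here, and the deposited values were taken as RPKM: times the coding length of GENCODE genes, 55.5% to 58.3% of low values fell within 0.05 of whole reads, beside 12.2% to 14.1% with transcript length and 10% by chance. Reads per gene are therefore estimates, rounded to whole reads. They came out whole within 0.1 read in all 6 libraries for 15 of the 32 genes, and no count test was run on them. Mvk, Mvd, Srebf2 and Fasn, whose intervals for single libraries are given, were not among these genes. A value of 0.001, which marks no reads, was set to 0. Gene positions are those of GENCODE on GRCm38.

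The 13923 genes whose mean reached 1 RPKM were fitted on log2(RPKM + 1) with limma 3.58.1 (lmFit, eBayes with trend) in R 4.3.3, with Benjamini-Hochberg adjustment over all of them. The pseudocount of 1 understates the change of genes with low levels. Tests were two-sided. Medians over a group of genes are descriptions without a test. The fit was tested on simulated data. The labels do not pair the libraries, and each replicate is a different mouse. The alternatives were other pseudocounts, filters and scalings, library weights, no variance trend, a replicate block and leaving out each library.

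The members and the lists were chosen with earlier results of these data known. Within the set, values in every library are given for genes with an unadjusted p under 0.05 or without overlap and for the 3 highest genes. They are also given for others where 1 library set the difference, chosen after their values were seen. Of the genes listed beside the set, they are given for those with an unadjusted p under 0.05. Some others were added after their values were seen. Tables were read with Python 3.11.15 and pandas 2.3.3. Some genes of the pathway are not reported here.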

Additional observations from a re-analysis of the deposited data

How the results depend on the processing

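No alternative brought a gene of the set under an adjusted p of 0.05 in limma: the lowest adjusted p lay between 0.192 and 0.867 over the 15 alternatives, and 15 of 31 genes kept their direction in all of them. The count at an unadjusted p under 0.05, 2 with all libraries, was 0 with library weights and 1 with a mean of at least 5 RPKM, with no filter and with a pseudocount of 0.1. It was 0 to 3 when 1 library was left out, with 0 without CML replicate 2, without CML replicate 3 and without each naive library in turn. The count without overlap, 5, was 3 with a mean of at least 5 RPKM, 2 with quantile normalization and 5 to 10 with a library left out. The median of the 18 enzymes ranged from -0.87 to -0.029 and that of the fatty acid genes from -0.66 to 0.11 with a library left out, the upper end of both being without CML replicate 2. With all libraries kept, these medians, -0.52 and -0.38, were -0.22 and -0.059 with library weights, -0.32 and -0.13 with quantile normalization and -0.33 and -0.24 with a pseudocount of 5. That of the 9 control and transport genes, -0.33, was -0.0063 with library weights, -0.19 with quantile normalization, -0.21 with a mean of at least 5 RPKM and -0.00059 without CML replicate 2.

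Quantile normalization moved the median of all genes from -0.18 to -0.01 and left 20 of 31 genes of the set below 0. It turned Abca1 to 0.16, Acaca to 0.087, Ebp to 0.045, Fdft1 to 0.016 and Fdps to 0.23. Scaling to the same 75th percentile turned Abca1 to 0.058 and Fdps to 0.021, and a pseudocount of 5 turned Fdps to 0.053. Library weights left 22 of 31 below 0 and turned Fdps to 0.29, Hsd17b7 to 0.26, Insig1 to 0.058, Nr1h2 to 0.086 and Sc5d to -0.013. The cause of these turns was not tested.

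With 1 library left out, the log2 difference ranged for Abca1 from -0.25 to 0.17, for Acaca from -0.64 to 0.26, for Ebp from -0.38 to 0.14, for Fasn from -0.74 to 0.033, for Fdft1 from -0.22 to 0.012, for Fdps from -0.45 to 0.65, for Hsd17b7 from -1.70 to 0.0265, for Lss from -1.58 to 0.021, for Msmo1 from -1.99 to 0.27, for Nr1h2 from -0.37 to 0.30, for Pmvk from -1.16 to 0.12, for Sc5d from -0.031 to 0.28, for Scd2 from -0.72 to 0.0021, for Sqle from -1.15 to 0.0087 and for Srebf1 from -0.14 to 0.10.

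Libraries with the same replicate number did not deviate together (correlations of -0.0048, -0.0016 and -0.019). Those with different numbers had correlations from -0.042 to 0.052. With so few libraries this check cannot exclude a shared batch, and the labels do not pair the mice. A fit with the replicate block called 2 genes of the set at an unadjusted p under 0.05 and 0 after adjustment (lowest adjusted p 0.589), and reduced the calls over all genes from 24 to 1. Depth limits the 19 genes with at most 10 reads in CML replicate 2.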

Other observations

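Fatty acid oxidation, the pathway opposed to synthesis, was summarised over 14 enzymes that all had reads in every library. Of these, 9 had a log2 difference above 0 and 5 below, 0 passed an unadjusted p of 0.05 or an adjusted p of 0.05 in limma, and the median was 0.16, and 0.23 without CML replicate 2. Cpt1a, which admits long-chain fatty acids to mitochondria, had 25.4, 17.6 and 28.7 RPKM in CML Tregs and 18.5, 26.8 and 13.3 RPKM in naive Tregs, with overlap between the groups. Hadha, a subunit of the mitochondrial trifunctional protein, had 60.2, 54.7 and 53.4 RPKM and 54.5, 47.0 and 48.4 RPKM, also with overlap. Slc25a20 alone was without overlap, with 10.4, 17.3 and 9.17 RPKM in CML Tregs and 3.19, 7.68 and 8.83 RPKM in naive Tregs. Its log2 difference was 0.86 (adjusted p = 0.583 in limma). Of all genes, 4.84% were higher in CML Tregs without overlap. The summed level of the 14 enzymes was 326 to 363 RPKM in CML and 290 to 356 RPKM in naive Tregs.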
